A study of Mus musculus with 12 samples.

Results

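The comparison of CBL/RUNX1 double mutant with CBL mutant haematopoietic stem and progenitor cells (HSPC) asked what mutant RUNX1 adds on a CBL mutant background. It rests on 4 of the 12 RNA sequencing libraries of the series, 2 double mutant and 2 CBL mutant. The genes described are those with at least 1 TPM (a length-corrected share of a library's transcripts) in at least 2 of these 4 libraries, which gave 11942 of the 28987 genes in the table. At the edge of that rule stood Nox4, whose second-highest value was 1.0004 TPM, and just outside it Tmigd3, at 0.99983 TPM.

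All libraries came from bone marrow of mice on the C57BL/6 background. HSPC were enriched with a kit that binds CD117, the receptor encoded by Kit, and the mutant clone was then sorted. Besides the 2 groups compared, CBL mutant and CBL/RUNX1 mutant, there were HSPC with a RUNX1 mutation alone and wild type HSPC, with 2 libraries each, and 2 further groups held Ly6G+ myeloid cells. The labels give marrow from individual mice, but not the age of the mice, the alleles, how they were introduced, or whether a group traces to a single clone. TPM do not separate an endogenous gene from an introduced copy.

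RUNX1 is a DNA-binding transcription factor that pairs with CBFB and is needed for the emergence of blood stem cells and for megakaryocyte, lymphoid and granulocyte maturation. CBL is a ubiquitin ligase that tags activated growth factor and cytokine receptors, KIT among them, for degradation. Mutations of both genes occur in myeloid neoplasms.

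The deposited values carry no read numbers, so the depth of a library and the counting error of a value are unknown. Libraries summed to between 933370 and 981994 TPM. Fold changes are log2 differences of TPM + 1 after scaling between libraries, given with their standard error (SE), and a gene was called when its Benjamini-Hochberg adjusted p in the limma test was under 0.05. Scaling mattered, since the median log2 fold change over all tested genes was 0.003 with it and 0.23 without it. Groups of 2 against 2 cannot reach an exact permutation p below 0.333, so each test borrows its spread from all 8 HSPC libraries and all genes. The replicates of the RUNX1 mutant group differed more than those of the other HSPC groups (SD of the log2 difference 0.708, against 0.298 for wild type, 0.374 for CBL mutant and 0.353 for double mutant).

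Double mutant cells differed from CBL mutant cells in 542 of the 11942 genes (4.54%), and 3180 genes (26.6%) had an unadjusted p under 0.05. Of the 542 called genes, 204 were higher (1.71% of tested genes) and 338 were lower (2.83%) in double mutant cells. Those shares are the baseline for the counts of called list members below. Without scaling the split was 269 higher and 254 lower. The called rises had a median log2 size of 1.22 and the called falls one of -1.44, and 37 rises and 97 falls were larger than 2. In 3982 genes (33.3%) both double mutant values lay above both CBL mutant values, and in 3860 genes (32.3%) both lay below. At 1 TPM or more in both double mutant and neither CBL mutant library stood 306 genes, and 286 genes showed the reverse, a contrast that the choice of genes builds in. The number of calls depended on single libraries. A fit without the 2 RUNX1 mutant libraries called 1391 genes higher (11.6%) and 1733 lower (14.5%), all 204 and 338 genes among them, whereas without double mutant replicate 2 the counts were 2 and 8, without double mutant replicate 1 they were 7 and 13, without CBL mutant replicate 1 they were 4 and 14, and without CBL mutant replicate 2 they were 33 and 69. Without wild type replicate 1 the counts were 28 and 58, and without wild type replicate 2 they were 28 and 57.

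**Figure D1:**
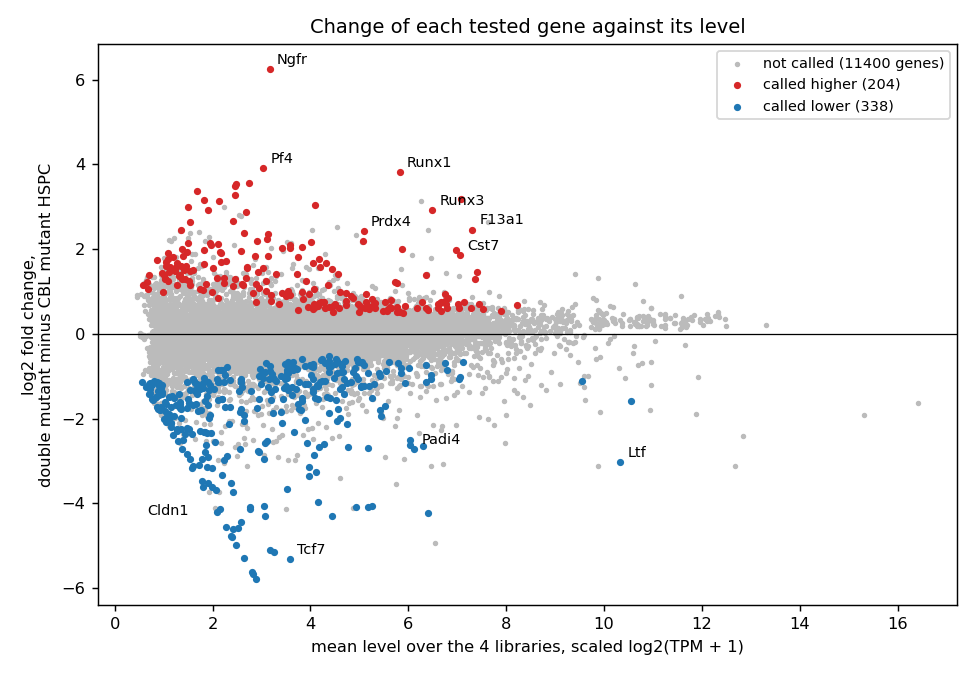
Log2 fold change of each tested gene, double mutant minus CBL mutant HSPC (vertical axis), against its mean scaled log2(TPM + 1) over the 4 libraries (horizontal axis). The 204 genes called higher are red, the 338 called lower are blue and the 11400 others grey. The called falls reach -5.79 and the called rises, led by Ngfr, reach 6.24.

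Runx1 itself was the check of the labels. Runx1 (ENSMUSG00000022952, GRCm38 chromosome 16, 92601466 to 92826149, minus strand) stood at 12.2 and 16.4 TPM in the CBL mutant libraries and at 257 and 248 TPM in the double mutant libraries. The other library pair labelled with a RUNX1 mutation held 170 and 45.3 TPM, and wild type held 12.7 and 11.3 TPM. Both groups labelled RUNX1 mutant thus lay above both groups without that label. The rise from CBL mutant to double mutant was 3.81 (SE 0.41, adjusted p = 0.00932). Cbl (ENSMUSG00000034342, chromosome 9, 44142976 to 44234049, minus strand) was at 73.7 and 81.3 TPM in CBL mutant and at 103 and 115 TPM in double mutant cells. The difference of Cbl, 0.24 (SE 0.29, adjusted p = 0.64), did not pass, and both groups carry the CBL mutant label.

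Runx3 was also called. This paralogue, known for roles in T cells and natural killer cells, rose from 31.04 and 32.6 TPM to 304 and 284 TPM (2.92, SE 0.43, adjusted p = 0.0216). In the RUNX1 mutant libraries Runx3 held 173 and 42.4 TPM, again high in the same replicate as Runx1. Both genes encode the conserved Runt domain, and whether reads were shared between them was not tested. Runx2, the paralogue of bone formation, held 12.4 and 15.6 TPM in CBL mutant and 30.2 and 27.7 TPM in double mutant cells (0.76, adjusted p = 0.144). Cbfb, the shared partner, differed by -0.11 (adjusted p = 0.64; 0.13 without scaling). In all, 2 of the 6 tested members of the RUNX family and its partners were called, both higher. Neither Runx1 nor Runx3 kept its call without CBL mutant replicate 1 or either double mutant replicate, and 1 of them kept it without CBL mutant replicate 2 or either wild type replicate.

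Among 13 tested CBL family members and adaptors, 1 was called. Grap, an adaptor related to GRB2, rose from 2.86 and 2.88 TPM to 13.03 and 18.1 TPM (1.85, adjusted p = 0.0417). Its relative Grb2 differed by -0.23 (adjusted p = 0.262) and Cblb, the CBL paralogue, by -0.15 (adjusted p = 0.761). The signs of Grb2 and Cblb turned without scaling.

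The largest called rise was that of Ngfr, the low-affinity nerve growth factor receptor. Ngfr was at 0.0300 and 0.0431 TPM in the CBL mutant libraries and at 92.0 and 92.6 TPM in the double mutant libraries (6.24, SE 0.60, adjusted p = 0.00770). Ngfr was not limited to the groups labelled RUNX1 mutant: the wild type libraries held 160 and 136 TPM and the RUNX1 mutant libraries 49.6 and 168 TPM. CBL mutant cells were the only HSPC group near 0. Outside HSPC, wild type Ly6G+ cells held 0.351 and 0.136 TPM and double mutant Ly6G+ cells 62.1 and 83.7 TPM. Whether an introduced copy added to any of these values was not tested.

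Pf4, the platelet chemokine CXCL4 (ENSMUSG00000029373, chromosome 5, 90772435 to 90773383, plus strand), rose from 0.771 and 1.55 TPM to 54.9 and 24.4 TPM (3.91, SE 0.36, adjusted p = 0.0064). Both wild type libraries, at 15.4 and 17.02 TPM, lay above CBL mutant cells. Saa3, an acute-phase serum amyloid, rose from 1.503 and 0.507 TPM to 38.8 and 17.5 TPM (3.56, adjusted p = 0.0099). Fn1, the matrix protein fibronectin, rose from 0.847 and 0.459 TPM to 33.5 and 13.6 TPM (3.53, adjusted p = 0.00903). For Pf4, Saa3 and Fn1 double mutant replicate 1 was the higher of its pair.

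Tfpi, the inhibitor of tissue factor, was tight in double mutant cells at 20.7 and 21.1 TPM, against 1.23 and 0.199 TPM in CBL mutant cells (3.50, adjusted p = 0.0157). Pla2g7, the platelet-activating factor acetylhydrolase, rose by 3.29, Gng11, a G protein gamma subunit of platelets, by 3.13 and Ecm1, an extracellular matrix protein, by 3.04. Afdn, the junctional protein afadin, rose from 1.73 and 1.05 TPM to 19.97 and 18.97 TPM (2.87, SE 0.19, adjusted p = 0.00305). Tceal8 rose by 2.66. These were the 12 largest called rises, Runx1 and Runx3 included, among genes of at least moderate level.

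The 12 largest falls are those named by the same rule, which leaves out antigen receptor segments and predicted genes, and the largest was Tcf7. Tcf7 (ENSMUSG00000000782, chromosome 11, 52252371 to 52283014, minus strand), which encodes the T lineage factor TCF1, fell from 92.8 and 59.98 TPM to 0.971 and 1.17 TPM (-5.31, SE 0.26, adjusted p = 0.000742). Wild type held 1.94 and 1.89 TPM and RUNX1 mutant 3.71 and 1.92 TPM, so among HSPC the CBL mutant libraries alone were high. Double mutant Ly6G+ replicate 1 held 29.6 TPM. Myl10, a myosin light chain gene, fell from 49.2 and 64.7 TPM to 1.22 and 0.351 TPM (-5.15, adjusted p = 0.000742). Lck, the T cell receptor kinase, fell from 35.9 and 20.7 TPM to 0.447 and 1.16 TPM (-4.09, adjusted p = 0.00747). Npy, the neuropeptide Y gene, stood at 39.1 and 18.4 TPM and was listed at 0 in both double mutant libraries.

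The wild type level beside the other falls varied. Stk39, a stress-linked kinase, was at 29.9 and 24.6 TPM in CBL mutant and at 0.367 and 0.0899 TPM in double mutant cells (-4.57, adjusted p = 0.0431), with 62.8 and 70.5 TPM in wild type. Cldn1, the tight junction claudin, fell from 20.3 and 15.4 TPM to 0.0653 and 0.0657 TPM (-4.14, SE 0.22, adjusted p = 0.00103). Jchain, the joining chain of secreted antibodies, fell by 4.12 on the log2 scale and Nkg7, a cytotoxic granule membrane protein, by 4.07. Fpr2, a formyl peptide receptor of neutrophils, fell from 183 and 132 TPM to 12.95 and 7.76 TPM. Il18r1, the interleukin 18 receptor, fell by 3.74, Ly6d, an early B lineage surface protein, by 3.68 and Lmo1, a LIM-domain cofactor, by 3.67. Il18r1 and Cldn1 were higher in CBL mutant than in wild type cells (5.72 and 4.52 TPM and 9.49 and 9.67 TPM in wild type), whereas Stk39 and Jchain were lower. Like the 12 largest rises, these falls were chosen among genes whose groups did not overlap, so the lack of overlap is no finding. Of the rises, Ngfr, Fn1, Pla2g7 and Gng11 passed the level filter only through the double mutant libraries. Of the falls, Npy, Stk39, Cldn1, Jchain, Il18r1 and Ly6d passed only through the CBL mutant libraries. The filter thus set the direction of these genes.

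**Figure D2:**
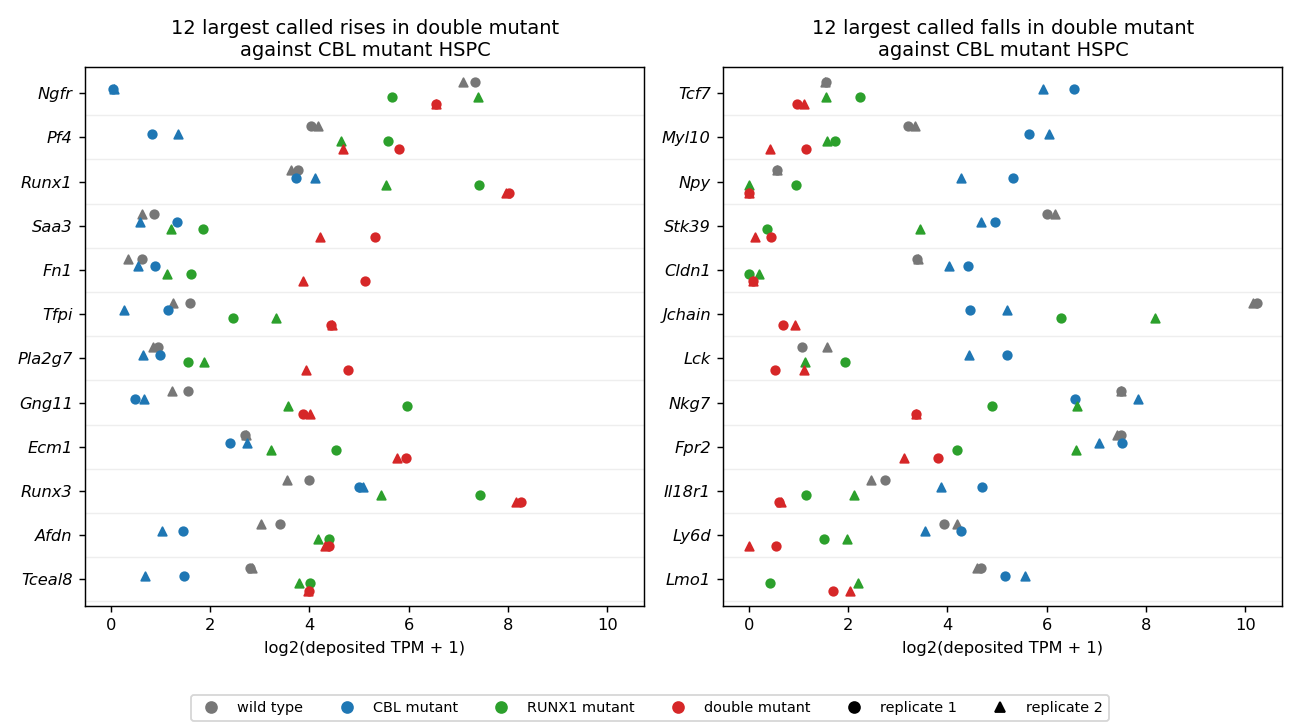
Log2(deposited TPM + 1) of the 12 largest called rises (left) and falls (right) in each of the 8 HSPC libraries. Colours give the genotype and marker shapes the replicate. Runx1 and Runx3 are higher in each library labelled RUNX1 mutant than in the other HSPC libraries. Runx3 in RUNX1 mutant replicate 2 (42.4 TPM) lies close to CBL mutant cells (31.04 and 32.6 TPM). Ngfr is near 0 in CBL mutant cells only, and Tcf7, Lck and Npy are high in CBL mutant cells only among these 8 libraries.

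Calls that held under every alternative tried were few among the genes named here: Tcf7, Myl10, Cldn1, Tcrg-C1 and Tcrg-C2. Leaving out double mutant replicate 2 was the alternative that cost the most calls.

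Promoter sequences are shown for a rise and a fall, as the stretches where a RUNX factor could bind close to the start site. They are the 250 bases before the RefSeq start on GRCm38.p6, from windows with no annotated exon, written 5′ to 3′ on the gene's strand with any RUNX motif in capitals.
Pf4, chr5:90772185-90772434, plus strand: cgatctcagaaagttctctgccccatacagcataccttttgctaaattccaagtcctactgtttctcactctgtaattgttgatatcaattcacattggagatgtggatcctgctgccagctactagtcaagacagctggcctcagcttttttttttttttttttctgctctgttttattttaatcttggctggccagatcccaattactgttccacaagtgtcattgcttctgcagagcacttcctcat
Lck, chr4:129573642-129573891, minus strand: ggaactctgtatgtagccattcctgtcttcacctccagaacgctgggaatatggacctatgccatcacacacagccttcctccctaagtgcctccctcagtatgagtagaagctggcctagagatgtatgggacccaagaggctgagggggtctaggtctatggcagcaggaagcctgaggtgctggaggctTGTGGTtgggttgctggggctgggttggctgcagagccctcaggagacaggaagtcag
The motifs searched were TGTGGT and TGCGGT on both strands. Pf4 held neither, and Lck held TGTGGT at position -58 from its first listed start. This pair does not stand for the largest rises and falls at large. Among the others with a listed promoter, the rise Runx3 (2 sites) and the fall Nkg7 (1 site) held a match, and the rest held none. Of all 27025 RefSeq promoters, 5044 (18.7%) held a match. Among tested genes the share was 1632 of 9021 (18.1%), among called rises 27 of 150 (18%) and among called falls 36 of 221 (16.3%). The shares of the called genes thus lay near that of all promoters. A match is a run of letters, not a shown binding site.

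Of 27 tested genes reported as RUNX1 targets, 1 was called higher and 2 lower, with a median log2 fold change of 0.37. The rise was Pf4 and the falls were Tcf7 and Nfe2, a megakaryocyte and erythroid factor that went from 145 and 150 TPM to 101 and 92.7 TPM (-0.86, adjusted p = 0.0399). Csf1r, the macrophage colony-stimulating factor receptor, held 12.2 and 17.7 TPM against 55.97 and 23.5 TPM (1.01, adjusted p = 0.131). Spi1, the myeloid factor PU.1, differed by -0.22 (adjusted p = 0.658; 0.03 without scaling).

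Progenitor markers were present in all 4 libraries, beside neutrophil genes at far higher levels. S100a8 alone held 176681 and 135117 TPM in CBL mutant and 54423 and 65785 TPM in double mutant cells. Kit held 37.5 and 42.4 TPM in CBL mutant and 50.8 and 37.98 TPM in double mutant cells, with overlap (-0.11, adjusted p = 0.939; 0.14 without scaling). Cd34, a sialomucin of progenitors, held 49.7 and 50.6 TPM against 203 and 129 TPM, without overlap (1.42, adjusted p = 0.149). Among 24 tested stem and progenitor genes 1 was called. Mecom, which encodes the stem cell factor EVI1, fell from 20.2 and 13.8 TPM to 0.510 and 0.786 TPM (-3.52, SE 0.28, adjusted p = 0.00597). Mecom passed the level filter only through the CBL mutant libraries, which sets its direction in this comparison. Wild type held 68.5 and 47.3 TPM and RUNX1 mutant 4.15 and 1.62 TPM, so Mecom was low in both groups labelled RUNX1 mutant. Without the RUNX1 mutant libraries, 9 of the 24 genes were called higher and 4 lower, against 11.6% and 14.5% of all tested genes.

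Of 11 tested HOX, MEIS and PBX genes, 3 were called, all higher, against 1.71% of all tested genes called higher. Of the 3, Hoxb3 and Pbx3 passed the level filter only through the double mutant libraries, which sets the direction of these 2. Hoxb3, a patterning factor of early progenitors, rose from 0.130 and 0.437 TPM to 3.35 and 3.31 TPM (1.58, adjusted p = 0.017). Hoxb4, long used to expand stem cells, rose from 1.19 and 1.48 TPM to 4.45 and 4.81 TPM (1.07, adjusted p = 0.0379). Pbx3, a HOX cofactor, rose by 1.48 (adjusted p = 0.025). The leukaemia-linked pair Hoxa9 and Meis1 did not join them, with differences of -0.90 (adjusted p = 0.198) and -0.36 (adjusted p = 0.822). All 3 calls were lost when any wild type, CBL mutant or double mutant library was left out.

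Of 23 tested megakaryocyte and platelet genes 3 were called higher and 3 lower. The level filter passed 6 only through the double mutant libraries, Gng11 among them, and 1, Gp1bb, only through the CBL mutant libraries. That sets the direction of these genes. Besides Pf4 and Gng11, Selp, the adhesion molecule P-selectin, rose from 3.95 and 6.02 TPM to 34.7 and 21.9 TPM (2.04, adjusted p = 0.0184). Itga2b, the integrin CD41 of megakaryocytes, held 7.91 and 4.60 TPM against 53.6 and 36.97 TPM (2.44, SE 0.82, adjusted p = 0.123). Gp1bb, a subunit of the von Willebrand factor receptor, fell from 6.01 and 4.37 TPM to 0.865 and 0.915 TPM (-1.81, adjusted p = 0.0144). Cd9, a tetraspanin of platelets and other cells, fell from 165 and 158 TPM to 40.7 and 22.3 TPM (-2.62, adjusted p = 0.029). Nfe2 was the third fall. The platelet receptor Gp9 differed by 0.24 (adjusted p = 0.772). The summed level of the list was 643 and 632 TPM in CBL mutant and 711 and 538 TPM in double mutant cells, so the groups overlapped. The platelet genes Gp6, Ppbp and Tubb1 were below the level filter. Leaving out any wild type, CBL mutant or double mutant library left at most 1 rise and 1 fall called.

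Erythroid genes gave 1 call in 26, again Nfe2. Gata1 differed by -0.31 (adjusted p = 0.544), Klf1 by -0.88 (adjusted p = 0.457) and the globin Hbb-bt by -1.97 (adjusted p = 0.113). Mast cell, basophil and eosinophil genes gave no limma call among 17, with 5 at an unadjusted p under 0.05, against 26.6% of all tested genes. Cpa3, the mast cell carboxypeptidase, stood at 15.3 and 10.4 TPM in CBL mutant and 89.3 and 72.4 TPM in double mutant cells, and its SE of 1.13 on a difference of 2.33 came with RUNX1 mutant libraries at 1181 and 48.2 TPM. Hdc, the histamine-forming enzyme, held 51.5 and 60.7 TPM against 105 and 119 TPM (0.74, adjusted p = 0.0515).

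Several T lineage genes fell. Of 30 listed T cell genes 17 were tested, and 11 of these were called lower and none higher in double mutant cells (median -2.01). Over all tested genes, 2.83% were called lower and 1.71% higher. Of the 17, 10 had under 1 TPM in both double mutant libraries and passed the level filter only through the CBL mutant libraries, so they had to differ in this direction and the count and median are in part set by the filter. The constant regions of the T cell receptor gamma chain were among the deepest falls. Tcrg-C2 fell from 26.6 and 24.2 TPM to 0.204 and 0 TPM (-4.61, SE 0.21, adjusted p = 0.000742). Tcrg-C1 fell from 22.7 and 32.2 TPM to 0 and 0.767 TPM (-4.44, adjusted p = 0.00314). Tcrg-C4 fell from 20.8 and 14.4 TPM to 0 in both libraries (-4.19, adjusted p = 0.00606). These near-identical segments can share reads, so their separate levels are uncertain. The other called members, named after their values were seen apart from Tcf7 and Lck, were Tcf7, Lck, the receptor chains Trbc1, Trbc2 and Trac, the selection factor Themis, the T lineage factor Bcl11b and the surface protein Thy1.

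Among HSPC libraries the summed T cell level was highest in CBL mutant cells. CBL mutant cells held 386 and 255 TPM, double mutant cells 20.8 and 19.5 TPM, wild type 18.5 and 20.5 TPM and RUNX1 mutant 77.9 and 22.8 TPM. Double mutant HSPC were thus near the wild type level. Outside HSPC, double mutant Ly6G+ replicate 1 held 248 TPM and replicate 2 held 52.3 TPM, with 69.1 and 75.5 TPM in wild type Ly6G+ cells. Cd3e, which defines mature T cells, held 0.0409 and 0.0388 TPM in CBL mutant cells and 0 in double mutant cells. It stayed below the level filter, as did 12 other listed T cell genes, Cd4 and Cd8a among them. In bulk samples fewer cells of a type and less RNA per cell cannot be told apart. Of the T cell genes, 3 were called lower without CBL mutant replicate 1, 8 without CBL mutant replicate 2, 4 without either double mutant replicate and 7 without either wild type replicate.

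Of 22 listed natural killer and cytotoxic genes 9 were tested and 7 of these were called lower, against 2.83% of all tested genes. The filter passed 4 of the 9 only through the CBL mutant libraries, so that part of the count is built in. Gzma and Gzmb encode granzymes, the killing proteases of these cells. Gzma fell from 15.6 and 6.80 TPM to 0.0794 and 0 TPM (-3.46, adjusted p = 0.0099), and Gzmb fell from 9.38 and 6.66 TPM to 0.0422 and 0.0424 TPM (-3.10, adjusted p = 0.0172). Il2rb, a shared receptor chain for interleukins 2 and 15, fell by 2.11 (adjusted p = 0.0152) and Ctsw, the protease cathepsin W, by 1.93 (adjusted p = 0.0228). The defining receptors were near 0 throughout: Ncr1 at 0.240 and 0.187 TPM in CBL mutant and 0.0812 and 0 TPM in double mutant cells, and Klrb1c at 0.323 and 0.285 against 0.0765 and 0.0208 TPM. The count of 7 became 1 without CBL mutant replicate 1, 3 without CBL mutant replicate 2, 0 without either double mutant replicate and 2 without either wild type replicate.

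Of 15 tested immunoglobulin constant and joining genes, 7 were called lower in double mutant cells, against 2.83% of all tested genes. Their median was -3.97. All 15 were called lower without the RUNX1 mutant libraries, against 14.5% of all tested genes. The filter passed 8 of the 15 only through the CBL mutant libraries, which sets their direction. Igkc, the kappa light chain constant region, fell from 259 and 526 TPM to 19.9 and 24.9 TPM (-4.23, adjusted p = 0.0447). Igkj5 fell from 38.1 and 38.3 TPM to 0 in both (-5.29, adjusted p = 0.0174) and Igkj4 from 27.7 and 24.8 TPM to 0 in both (-4.76, adjusted p = 0.00903). Iglc2 fell by 3.51 (adjusted p = 0.00943) and Ighj1 by 3.97 (adjusted p = 0.021). Ighm, the heavy chain of IgM, held 41.6 and 64.2 TPM against 20.7 and 11.8 TPM (-1.89, SE 1.30, adjusted p = 0.391), and Ighg2b differed by -3.73 (adjusted p = 0.0577). Summed, these genes held 725 and 940 TPM in CBL mutant and 75.1 and 54.2 TPM in double mutant cells. Wild type libraries held 59260 and 61350 TPM and RUNX1 mutant libraries 3813 and 19560 TPM, so CBL mutant cells were already far below wild type. Short segments that resemble each other can share reads, so single segment values are uncertain. The count of 7 became 1 without CBL mutant replicate 1, 2 without either wild type replicate and 0 without any other compared library.

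Bank1, a B cell scaffold, was the 1 call among 15 B cell genes (3.44 and 3.60 against 1.24 and 1.35 TPM; -1.11, adjusted p = 0.0479). Cd79a, a B cell receptor subunit, held 8.95 and 2.40 against 4.49 and 0.287 TPM (-1.28, adjusted p = 0.345), and Pax5 differed by -0.41 (adjusted p = 0.565). Of 11 plasma cell genes, Sdc1, the surface marker CD138, rose from 0.163 and 0.154 TPM to 3.61 and 2.97 TPM (1.70, adjusted p = 0.0228). Tnfrsf13b, the receptor TACI, rose by 0.75 (adjusted p = 0.0457), while Jchain fell and Xbp1 differed by 0.25 (adjusted p = 0.273). Sdc1 and Tnfrsf13b thus moved against Jchain. The level filter passed Sdc1 only through the double mutant and Jchain only through the CBL mutant libraries, which sets the direction of both.

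Neutrophil granule genes were grouped by the stage at which they come on. Primary granules form at the promyelocyte stage, and the genes of their enzymes Mpo, Elane and Prtn3 gave no call. Mpo held 1426 and 3512 TPM in CBL mutant and 4796 and 5049 TPM in double mutant cells (0.89, adjusted p = 0.174). Elane differed by 0.46 (adjusted p = 0.502) and Prtn3 by 0.61 (adjusted p = 0.308). The wide CBL mutant pair showed in the summed list too, at 6613 and 14170 TPM, with 16440 and 18750 TPM in double mutant cells. Of the 14 primary granule genes, Cst7, the protease inhibitor cystatin F, rose from 51.1 and 92.5 TPM to 292 and 308 TPM (1.86, adjusted p = 0.025), and Nkg7 fell.

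Secondary and tertiary granule genes, which come on in myelocytes and later, gave 1 call of 16. Ltf, the iron-binding lactoferrin, fell from 3862 and 3517 TPM to 720.2 and 402 TPM (-3.02, SE 0.60, adjusted p = 0.0431), a call lost when any wild type, CBL mutant or double mutant library was left out. Ngp, the neutrophilic granule protein, held 20173 and 18318 TPM against 3159 and 2186 TPM (-3.12, adjusted p = 0.0515). Camp, the cathelicidin, held 17697 and 16064 TPM against 4270 and 3366 TPM (-2.40, adjusted p = 0.0525). The median of the list was -1.78 and 15 of 16 members had a negative difference. Without the RUNX1 mutant libraries, of which replicate 1 was low in Ltf (1560 TPM) and replicate 2 high (4615 TPM), 14 of the 16 were called lower and 1 higher. That fit called 14.5% of all tested genes lower and 11.6% higher. The summed list held 56830 and 52060 TPM in CBL mutant and 14630 and 14370 TPM in double mutant cells.

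Mature neutrophil genes gave 3 falls and 1 rise among 30, with a median of -0.77. Padi4, the enzyme that citrullinates histones, fell from 182 and 175 TPM to 31.8 and 30.7 TPM (-2.72, adjusted p = 0.0336), and Mxd1, a MYC antagonist of terminal maturation, fell by 2.13 (adjusted p = 0.0426). Fpr2 was the other fall. Clec4d, a lectin receptor, rose from 4.07 and 4.46 TPM to 27.1 and 22.2 TPM (2.04, adjusted p = 0.00871). Ly6g, the surface marker of neutrophils, was at 586 and 452 TPM in CBL mutant and 25.2 and 14.2 TPM in double mutant cells, yet its SE of 1.18 left the difference of -4.93 uncalled (adjusted p = 0.063). Cxcr2, the chemokine receptor of mature neutrophils, differed by -1.08 (adjusted p = 0.0788) and S100a8, a calprotectin subunit, by -1.62 (adjusted p = 0.0899). Calprotectin, S100a8 and S100a9 together, took 26.9% and 21.5% of all TPM in CBL mutant and 8.11% and 9.54% in double mutant cells. Wild type HSPC, at 28.9% and 31.4%, lay near wild type Ly6G+ cells, at 34.5% and 33.5%. The HSPC label thus does not mean that neutrophil RNA was absent. In bulk samples fewer neutrophils and less RNA per cell cannot be told apart. A fit without the RUNX1 mutant libraries called 14.5% of all tested genes lower and 11.6% higher. Without the RUNX1 mutant libraries 16 of the 30 genes were called lower and 4 higher, whereas leaving out any wild type, CBL mutant or double mutant library left no fall called.

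The phagocyte oxidase, which makes superoxide, gave no limma call among 7 genes, with 4 at an unadjusted p under 0.05, against 26.6% of all tested genes. Cybb, its catalytic subunit, held 432 and 482 TPM against 140 and 106 TPM (-2.14, adjusted p = 0.0867). Ncf1, Ncf4 and Cyba differed by -1.40, -1.08 and -0.99 (adjusted p = 0.158, 0.146 and 0.164). Without the RUNX1 mutant libraries 6 of the 7 were called lower, against 14.5% of all tested genes.

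Stefin A genes form a mouse cluster of cysteine protease inhibitors. All 7 tested members had positive differences, with a median of 1.86, and 1 was called, Gm5483 (76.9 and 25.1 against 280.3 and 850 TPM; 3.19, adjusted p = 0.0484). Stfa2 held 56.03 and 10.9 TPM against 154 and 478 TPM (3.13, adjusted p = 0.0706), while Stfa1 (0.63, adjusted p = 0.498) and BC100530 (0.58, adjusted p = 0.518) overlapped between the groups and turned to -0.0076 and -0.20 without CBL mutant replicate 2. CBL mutant replicate 1 and double mutant replicate 2 were the high ones of their pairs. The members are near-identical, so reads could be split among them.

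**Figure D3:**
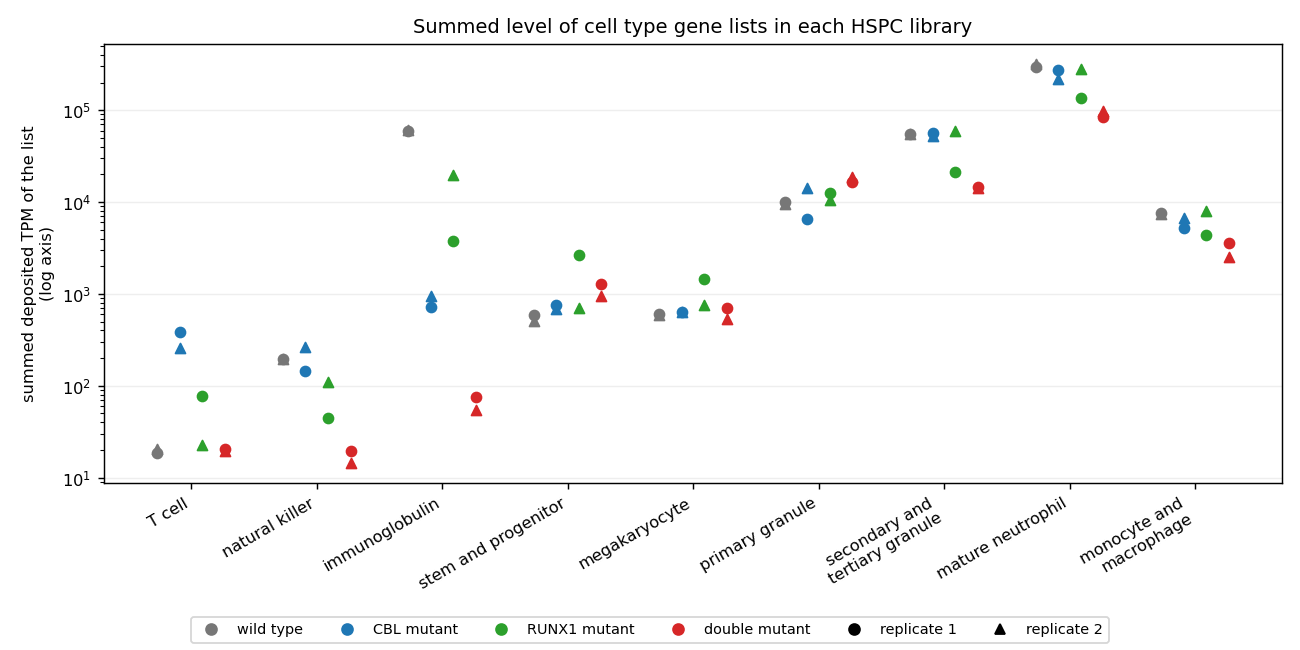
Summed deposited TPM of 9 cell type gene lists (vertical log axis) in each HSPC library. Colours give the genotype and marker shapes the replicate. T cell genes stand at 386 and 255 TPM in CBL mutant cells and between 18.5 and 77.9 TPM in all other HSPC libraries, and secondary granule genes are lowest in double mutant cells.

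Monocyte genes gave 2 rises and no fall among 27. Of the 27, 3 passed the level filter only through the double mutant libraries, Fn1 among them, which sets their direction. F13a1, the transglutaminase factor XIII A of monocytes and megakaryocytes, rose from 52.4 and 85.1 TPM to 385 and 506 TPM (2.46, SE 0.31, adjusted p = 0.0144), and Fn1 was the other rise. Ly6c2, a surface marker of inflammatory monocytes, held 1437 and 2362 TPM against 611 and 606 TPM (-1.85, adjusted p = 0.141). Ccr2, the receptor that draws monocytes from marrow, differed by 0.79 (adjusted p = 0.321). Among 28 growth factor and cytokine receptors, Ifngr1, a chain of the interferon gamma receptor, rose from 83.9 and 122 TPM to 297 and 376 TPM (1.46, adjusted p = 0.0259), and Csf3r differed by 0.15 (adjusted p = 0.592). Myeloid lineage factors gave no limma call among 18, with 7 at an unadjusted p under 0.05, against 26.6% of all tested genes. Cebpa differed by 0.37 (adjusted p = 0.483). Cebpe, a factor for secondary granule genes, held 374 and 459 against 217 and 261 TPM (-1.05, adjusted p = 0.233).

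Of 19 immediate early genes, which respond to growth signals within minutes, 3 were called higher and 1 lower. Fos, a subunit of the AP-1 factor, rose from 2.45 and 3.43 TPM to 35.1 and 14.5 TPM (2.36, adjusted p = 0.026), and its partner Jun rose from 1.75 and 1.03 TPM to 7.55 and 6.70 TPM (1.56, adjusted p = 0.0252). Dusp1, a phosphatase that turns off stress kinases, rose by 1.84 (adjusted p = 0.02), whereas the antiproliferative Btg2 fell by 1.53 (adjusted p = 0.0397). Egr1 differed by 1.24 (adjusted p = 0.0877). None of the 4 calls was made when any wild type, CBL mutant or double mutant library was left out.

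Of 18 RAS-MAPK feedback and output genes, Spry2, an inhibitor of receptor signalling that CBL can bind, rose from 3.23 and 4.03 TPM to 14.2 and 13.4 TPM (1.45, SE 0.19, adjusted p = 0.0165). Phlda1 fell by 1.13 (adjusted p = 0.0231). Dusp6, a phosphatase of ERK, and the cyclin Ccnd1 overlapped between the groups (0.23, adjusted p = 0.741 and 0.23, adjusted p = 0.677). STAT5, STAT3 and cytokine feedback genes gave no limma call among 16, with 4 at an unadjusted p under 0.05, against 26.6% of all tested genes.

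None of 40 S phase and mitosis genes was called by limma and 4 had an unadjusted p under 0.05, against 26.6% of all tested genes. Their median was -0.12 (0.13 without scaling). Mki67 held 61.2 and 63.9 TPM against 58.1 and 60.4 TPM, and Ccnb1 and Mcm2 differed by 0.10 and 0.29 (adjusted p = 0.887 and 0.242). Of 16 cyclin D and G1 kinase genes Cdkn1b, the inhibitor p27, fell from 31.05 and 29.9 TPM to 23.3 and 20.4 TPM (-0.70, adjusted p = 0.0439). Among 21 p53 target genes, Pmaip1, the death promoter NOXA, rose from 2.29 and 3.48 TPM to 11.7 and 12.7 TPM (1.55, adjusted p = 0.0161), and Perp fell by 1.21 (adjusted p = 0.0431) beside Btg2. Perp passed the level filter only through the CBL mutant libraries, so its direction was built in. Cdkn1a, the inhibitor p21, overlapped between the groups (-0.44, adjusted p = 0.429), and Mdm2 and Trp53 differed by -0.64 and -0.21 (adjusted p = 0.0647 and 0.451; Trp53 0.04 without scaling).

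Genes of protein synthesis and mitochondria gave few calls. Cytosolic ribosomal protein genes took 12.7% and 13.9% of TPM in CBL mutant and 20.1% and 19.5% in double mutant cells. All 77 tested had positive differences, with a median of 0.32 (0.57 without scaling), but limma called none. An unadjusted p under 0.05 was reached by 25, against 26.6% of all tested genes. Without the RUNX1 mutant libraries 17 were called higher, against 11.6% of all tested genes. The calprotectin share was lower in the double mutant libraries, and its part in this difference was not tested. Ribosome biogenesis genes had a median of 0.46, and 1 of 35 was called: Nhp2, a pseudouridylation factor, rose from 145 and 156 TPM to 269 and 274 TPM (0.60, adjusted p = 0.0458). Ncl, the nucleolar protein nucleolin, held 128 and 136 TPM against 250.3 and 239 TPM (0.64, adjusted p = 0.064), and Npm1 differed by 0.46 (adjusted p = 0.0759). Without the RUNX1 mutant libraries 25 of the 35 were called, all higher, against 11.6% of all tested genes called higher.

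Prohibitins, mitochondrial chaperones and proteases had the most rises of the metabolic lists, 6 of 17, against 1.71% of all tested genes. All 17 had positive differences, a trait shared with other lists. Positive differences were found in 34 of 35 ribosome biogenesis, 67 of 75 nuclear respiratory chain and 13 of 13 mitochondrially encoded genes. Tomm40, the import channel of the outer membrane, rose from 56.2 and 62.3 TPM to 120 and 118 TPM (0.75, SE 0.12, adjusted p = 0.0259). Hspa9, the matrix chaperone mortalin, rose from 97.6 and 103 TPM to 196 and 197 TPM (0.71, adjusted p = 0.0479). Clpp, a matrix protease, Phb2, a prohibitin, and Timm50, an import receptor, rose by 0.59, 0.55 and 0.50 (adjusted p = 0.0457, 0.049 and 0.048), and the matrix protease Lonp1, named after its value was seen, was the remaining call. Phb and Hspd1 differed by 0.57 and 0.37 (adjusted p = 0.0845 and 0.111). All 6 calls were lost when any wild type, CBL mutant or double mutant library was left out, and 2 remained without scaling.

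Respiratory chain and mitochondrial ribosome genes had medians near those of the cytosolic ribosome. Ndufa10, a complex I subunit, was the 1 call of 75 nuclear respiratory chain genes (37.6 and 41.4 against 69.7 and 76.5 TPM; 0.62, adjusted p = 0.0431), and Mrps23 the 1 call of 72 mitochondrial ribosomal protein genes (118 and 135 against 229 and 229 TPM; 0.61, adjusted p = 0.0419). Their medians were 0.35 and 0.33, and 28 members of each list were called higher without the RUNX1 mutant libraries, against 11.6% of all tested genes. The 13 mitochondrially encoded genes gave no limma call, although 10 had an unadjusted p under 0.05, against 26.6% of all tested genes. Their median was 0.45. Fission and fusion genes gave no limma call among 17, with 4 at an unadjusted p under 0.05, against the same 26.6%. Dnm1l differed by 0.26 (adjusted p = 0.193) and Opa1 by 0.56 (adjusted p = 0.0638).

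Other metabolic calls were few. Prdx4, a peroxiredoxin of the endoplasmic reticulum, rose from 15.95 and 11.7 TPM to 99.7 and 86.5 TPM (2.43, SE 0.25, adjusted p = 0.00871), the larger of the 2 rises among 26 antioxidant genes. Gclc, the rate-limiting enzyme of glutathione synthesis, rose by 0.64 (adjusted p = 0.0499). Shmt2 and Mthfd1l, mitochondrial enzymes of one-carbon metabolism, rose by 0.60 and 0.61 (adjusted p = 0.0464 and 0.0368). Psma8, an alternative proteasome subunit known from testis, rose from 0.301 and 0.0318 TPM to 3.17 and 3.84 TPM (1.76, adjusted p = 0.0144), the 1 call of 32 proteasome genes. Psma8 passed the level filter only through the double mutant libraries, so its direction was built in. Dnajb9, a chaperone induced by endoplasmic reticulum stress, fell from 19.3 and 25.4 TPM to 11.3 and 10.7 TPM (-1.17, adjusted p = 0.0119). Glycolysis genes gave no limma call among 22, with 5 at an unadjusted p under 0.05, against 26.6% of all tested genes.

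**Figure D4:**
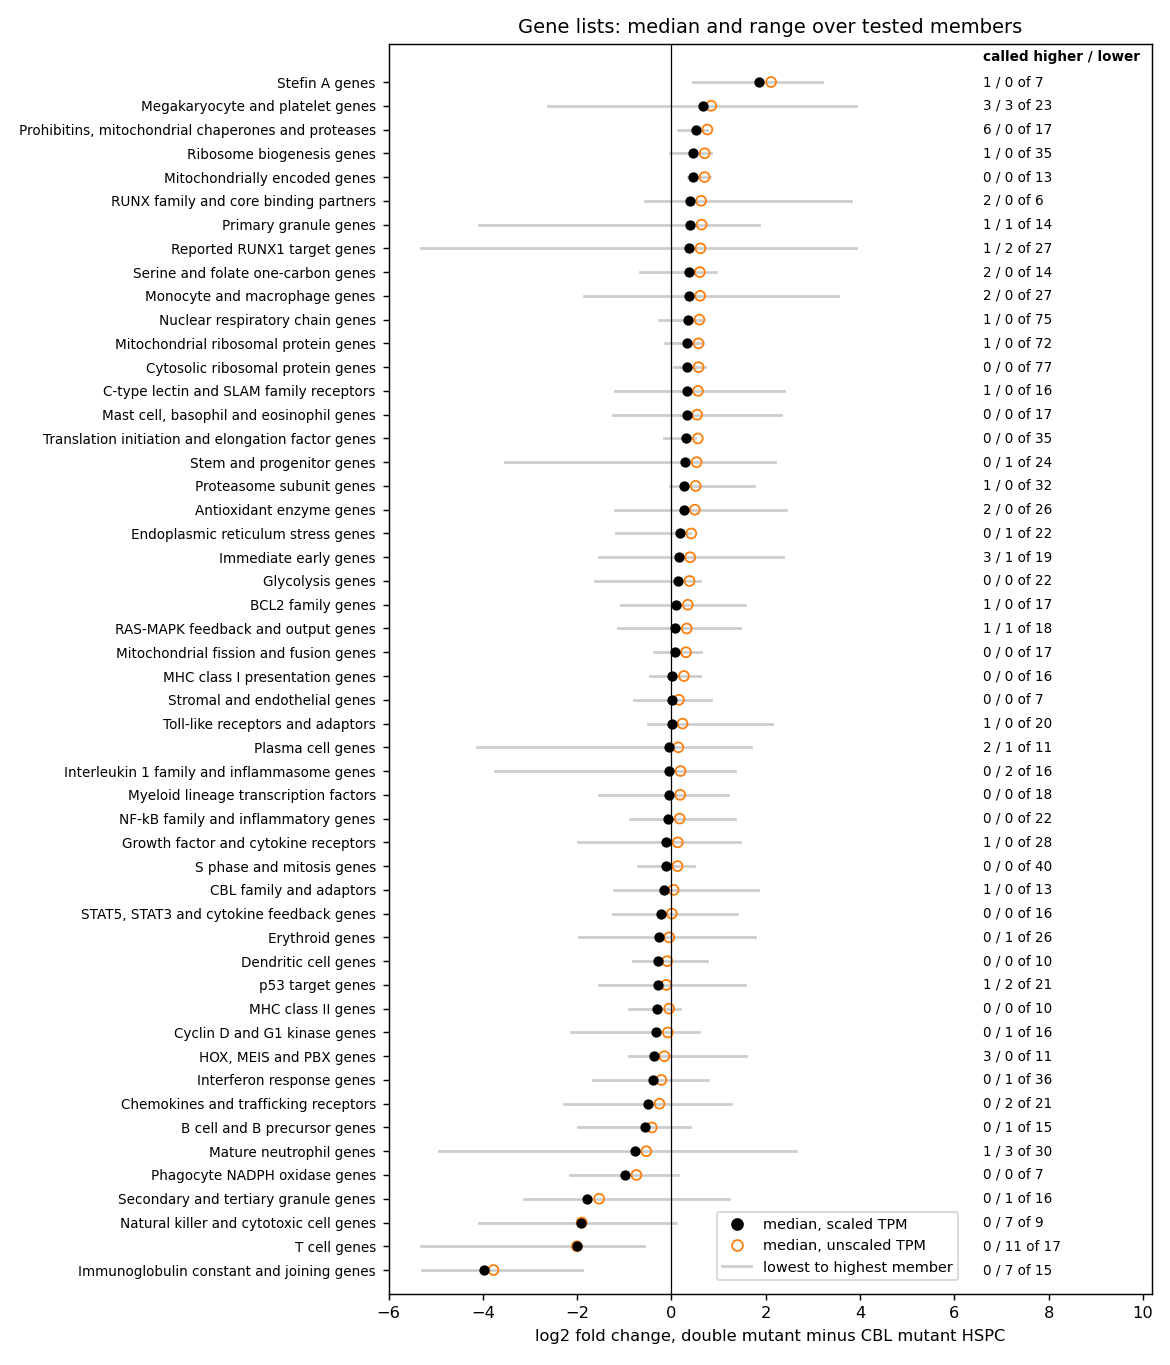
Median log2 fold change, double mutant minus CBL mutant HSPC, of each gene list with at least 5 tested members (filled, scaled TPM; open, unscaled TPM), with the range of its members as a grey line. Numbers on the right count members called higher and lower of those tested. Immunoglobulin, T cell and natural killer lists lie furthest to the left, and the stefin A list furthest to the right.

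Immune response lists gave between 0 and 2 calls each. Tlr1, a receptor for bacterial lipopeptides, rose from 0.807 and 0.896 TPM to 9.03 and 8.02 TPM (2.14, SE 0.17, adjusted p = 0.00597), the 1 call among 20 Toll-like receptors and adaptors. The level filter passed Tlr1 only through the double mutant libraries, which sets its direction. Of 36 interferon response genes, Cmpk2 fell from 22.5 and 23.6 TPM to 8.96 and 6.92 TPM (-1.66, adjusted p = 0.0402). Isg15 and Irf7, at -1.08 and -0.54, overlapped between the groups (adjusted p = 0.244 and 0.552). Gsdme, a pore-forming gasdermin, fell from 46.6 and 39.8 TPM to 16.004 and 12.4 TPM (-1.78, adjusted p = 0.0459), with Il18r1 the other fall among 16 interleukin 1 family and inflammasome genes. Il18r1 passed the level filter only through the CBL mutant libraries, which sets its direction. Itgb7, an integrin of lymphocyte homing, fell by 2.11 (adjusted p = 0.0179) and the chemokine Ccl5 by 1.31 (adjusted p = 0.0273) among 21 trafficking genes, and Cxcr4, the marrow retention receptor, held 198 and 224 TPM against 121 and 93.5 TPM (-1.23, adjusted p = 0.088). No limma call was made among 22 NF-kB genes, 10 MHC class II genes and 16 class I presentation genes. Of these, 3, 1 and 2 had an unadjusted p under 0.05, against 26.6% of all tested genes. The double mutant replicates themselves differed in MHC class II, at 676 and 317 TPM summed.

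The effect of mutant RUNX1 could be set beside its effect on a wild type background, from 4 other libraries. Those libraries also fed the spread used for the calls. Genes on which the RUNX1 mutant replicates disagreed were thus less likely to be called. Agreement between these replicates among called genes is therefore in part built in. Of the 542 called genes, 373 (68.8%) had the same sign between RUNX1 mutant and wild type HSPC, against 6353 of all 11942 tested genes (53.2%). The count was 126 of the 204 rises (61.8%) and 247 of the 338 falls (73.1%). Each RUNX1 mutant library showed it for the falls: 71.9% of them lay below the wild type mean in replicate 1 and 68.9% in replicate 2, against 55.3% and 47.7% of all tested genes that were lower in double mutant cells. For the rises the shares were 60.8% and 56.9%, against 57.6% and 43.3% of all tested genes that were higher. Between RUNX1 mutant and wild type HSPC themselves 5 of the 11942 genes were called (0.0419%), Mecom, Cldn1 and Psma8 among them.

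Runx1 (2.29 on the wild type background), Runx3 (2.17), Gng11 (2.98) and Psma8 (2.91) had positive differences on both, and Mecom (-4.47), Stk39 (-4.54), Lmo1 (-3.69) and Cldn1 (-3.65) had negative ones on both. Ngfr differed by -1.20 on the wild type background, opposite to its rise on the CBL mutant background. Tcf7 (-0.03) and Tcrg-C2 (0.25) lay near 0 on the wild type background. Wild type HSPC held only 1.94 and 1.89 TPM of Tcf7 and 0.497 and 0.624 TPM of Tcrg-C2. From such levels a fall of the size seen on the CBL mutant background could not show. The difference between the backgrounds was called in 2 genes (0.0167%): Tcf7 at -5.29 (SE 0.37, adjusted p = 0.012) and Tcrg-C2 at -4.86 (SE 0.30, adjusted p = 0.0115). Tcrg-C2 passed the level filter only through the CBL mutant libraries, which sets the sign of its effect on that background. In all, 2349 genes had an unadjusted p under 0.05 for that difference, and only Tcf7 and Tcrg-C2 passed the adjustment. The count of 2 became 0 with the replicate block and without either wild type or either double mutant replicate, 6 without CBL mutant replicate 2, and 1309 and 1982 without RUNX1 mutant replicates 1 and 2.

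**Figure D5:**
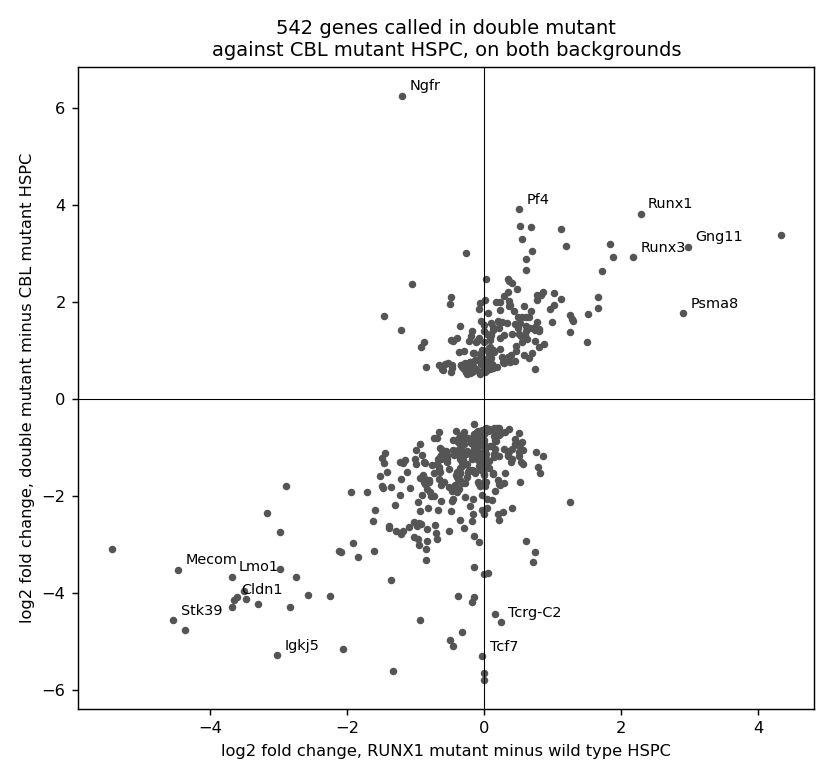
The 542 called genes, with the log2 fold change of double mutant minus CBL mutant HSPC (vertical axis) against that of RUNX1 mutant minus wild type HSPC (horizontal axis). The horizontal axis uses other libraries, which also fed the spread behind the calls. Points in the lower left and upper right, 373 in all, have the same sign on both backgrounds. Tcf7 and Tcrg-C2 lie at the bottom near 0 on the horizontal axis, and Ngfr lies highest, left of 0.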

How the data were processed

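The deposited table gives TPM per gene for 12 libraries. Per the submitters' processing notes, bcl2fastq and CASAVA 1.8 handled the reads, kallisto is named among the tools and mm10 among the builds. Tool versions other than that, the transcript annotation and the step from transcripts to genes are not given in the sources used here. TPM were deposited by the authors without read numbers, so the depth is unknown and no count test was run. Because reads are assigned to transcripts by their match, genes with near-identical copies can trade reads.

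Gene symbols and coordinates came from GENCODE vM21 (GRCm38), which named 27458 of 28987 genes (94.7%), and promoters from RefSeq (GRCm38.p6). TPM of the 11942 genes were scaled by trimmed means of log ratios (trim 0.3 of ratios, 0.05 of levels), raised by a pseudocount of 1, and log2-transformed. Low genes therefore have understated fold changes. limma 3.58.1 in R 4.3.3 fitted group means over the 8 HSPC libraries, with trended and robust variance moderation and 4 residual degrees of freedom. Benjamini-Hochberg adjustment ran over all 11942 genes, with a threshold of 0.05. Overlap between groups was judged on the scaled values. The procedure was also run on simulated data that gave each gene the same spread in every group. That setting does not cover the wider spread of the RUNX1 mutant replicates. Replicates are individual mice per the labels, and the replicate numbers link no libraries across groups there.

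The genes and the 52 gene lists were chosen with earlier results of these data known. Named genes were Cbl, Runx1 and the 12 largest called rises and 12 largest called falls whose groups did not overlap and whose log2 level averaged 2 or more (predicted genes and antigen receptor segments left out). Each list added 3 set examples and up to 4 called rises and 4 called falls by p, or its 2 lowest p without a call. Genes outside that rule, chosen after their values were seen, were Trbc1, Trbc2, Trac, Themis, Bcl11b, Thy1, Lonp1, S100a9, Gp6, Ppbp, Tubb1, Cd4, Cd8a and those whose promoters are printed. Alternatives covered the scaling, the pseudocount, the filter, the libraries fitted, the variance moderation, library weights and each library left out. Some results are not reported here.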

Additional observations from a re-analysis of the deposited data

Results flagged for a closer look

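The effect of mutant RUNX1 differed between the CBL mutant and the wild type background in 2 genes by a test of the difference itself, in limma with Benjamini-Hochberg adjustment. For Tcf7, which encodes the T lineage factor TCF1, the difference of the log2 effects was -5.29 (adjusted p = 0.012): the effect was -5.31 between double mutant and CBL mutant HSPC and -0.03 between RUNX1 mutant and wild type HSPC. For Tcrg-C2, a constant region of the T cell receptor gamma chain, the difference was -4.86 (adjusted p = 0.0115), from effects of -4.61 and 0.25. The level filter used only the CBL mutant and double mutant libraries. Tcrg-C2 passed it through the CBL mutant libraries alone, so the sign of its -4.61 was built in. Wild type HSPC held 1.94 and 1.89 TPM of Tcf7 and 0.497 and 0.624 TPM of Tcrg-C2. A fall of like size could therefore not show on the wild type background, and the test cannot tell whether RUNX1 acts differently there. Among HSPC the CBL mutant libraries were the only high ones in both genes, both double mutant libraries were lower than both of them, and the wild type and RUNX1 mutant libraries were all at or below 3.71 TPM. Outside HSPC, Tcf7 held 29.6 TPM in double mutant Ly6G+ replicate 1. The count of 2 genes depended on single libraries: it was 0 with the replicate block and without either wild type or either double mutant replicate, 6 without CBL mutant replicate 2, and 1309 and 1982 without RUNX1 mutant replicates 1 and 2.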

How the results depend on the processing

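The numbers of calls moved more than the fold changes. Against 204 genes higher and 338 lower, the 4 compared libraries alone gave 912 and 1292, leaving out the 2 RUNX1 mutant libraries 1391 and 1733, and array weights 1246 and 1613. All 12 libraries gave 64 and 126, no filter 107 and 172, and a filter of 5 TPM 132 higher. Leaving out 1 library gave 2 to 1386 higher and 8 to 1741 lower. The 2 genes called for the difference between backgrounds became 15 without scaling, 5 with a pseudocount of 5 TPM, 1 with all 12 libraries, 11 without trend and robust moderation, 3 with array weights, and 0 to 1982 with 1 library left out (1309 and 1982 without RUNX1 mutant replicates 1 and 2). Replicate numbers shared across groups did not pair the samples by the labels. With 2 pairs, the replicate 1 deviations of CBL mutant and double mutant cells correlated at 0.194 over 11942 genes. The replicate block gave 160 higher, 240 lower and 0 for the difference. The causes of these shifts were not tested.

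Of 91 called genes named here, none changed direction in any alternative, and 5 kept the call in all of them. Among genes not called, unscaled TPM turned Kit to 0.14, Cbfb to 0.13, Grb2 to 0.0172, Cblb to 0.0458, Spi1 to 0.0275 and Trp53 to 0.0378. Leaving out 1 library took the log2 fold change across 0 for Cblb (-0.295 to 0.00096), Meis1 (-0.99 to 0.28), Pax5 (-0.88 to 0.0509), Elane (-0.22 to 1.15), Cebpa (-0.12 to 0.86), Gp9 (-0.10 to 0.57), Stfa1 (-0.0076 to 1.28), BC100530 (-0.20 to 1.37), Dusp6 (-0.25 to 0.73), Ccnd1 (-0.17 to 0.64), Kit (-0.25 to 0.0391), Gata1 (-0.79 to 0.19), Ccnb1 (-0.0804 to 0.29) and Irf7 (-1.30 to 0.23). Depth is unknown, so levels near 0 carry no stated precision.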
